A study of Mus musculus with 9 samples.

Results

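Tcim, Abi3bp, Phldb2 and Chl1 are 4 genes picked from these arrays because their signal was far higher in the hair germ than in the bulge, out of 12393 genes named on the array. All 4 were represented, by 5 probe sets in all, and all 4 entered the 7796 genes tested. The arrays came from virgin CD1 female mice that all carried Lef1RFP and K14H2BGFP, a red reporter under Lef1 control and a green histone fusion driven by the keratin 14 promoter. Cells of back skin were sorted into dermal papilla (red, not green, depleted of CD45, CD117 and integrin alpha 7, and per the titles of CD34), hair germ (green, not red, CD34 negative, P-cadherin high) and bulge (green, not red, CD34 positive, P-cadherin low). Collections were made on postnatal days 43 (early telogen, the resting phase), 56 (middle) and 69 (late), and 1 array was hybridised for every population at each age. Papilla cells came from a collagenase suspension and both epithelial populations from the trypsin step that followed, so preparation and tissue layer cannot be told apart. Whether mice were pooled, and whether the arrays of a day share mice, is not stated.

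In the resting follicle the hair germ is the small epithelial cluster between the bulge, where long-lived stem cells sit, and the dermal papilla, the mesenchymal condensate that signals to it. The hair germ is known as the first epithelial compartment to respond when a new growth phase begins. The 4 genes have different roles. Tcim encodes a small protein that in human cells binds Chibby, an inhibitor of beta-catenin, and so favours WNT target expression. Abi3bp encodes a secreted matrix protein named for its binding to the adaptor ABI3. Phldb2 encodes LL5-beta, a lipid-binding protein that holds microtubule-capturing CLASP proteins at the cell cortex near adhesions to the matrix. Chl1 encodes the close homologue of L1, an immunoglobulin-type adhesion molecule best known from migrating and growing neurons.

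The label under which the genes were grouped says that they are shared with the papilla. For 3 of them the papilla level lay above the bulge yet below the hair germ, while the data went against the label for Chl1. Tcim, Abi3bp and Phldb2 had the order hair germ, then papilla, then bulge, with no overlap between the populations, a pattern that 1.01% of all genes tested showed (79 of 7796). The genes were picked for hair germ above bulge. The nearer comparison is thus the 952 genes called higher in hair germ than in bulge, of which 70 had this order. The papilla level also entered the grouping, so the order is a description of these genes. The counts of other genes with this order are therefore no test of the label. Chl1 was lower in papilla than in bulge on every day and without overlap, as 28.3% of genes tested were. The values behind this follow gene by gene, as deposited signals and as means of log2(signal + 16). In bulk samples such as these, fewer cells of a type and less RNA per cell cannot be told apart.

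RefSeq promoter windows (GRCm38.p6) were matched for 2 of the 4 genes, Phldb2 and Chl1, and are shown as the matched ones; they are also the genes with the highest and the lowest papilla level relative to hair germ and bulge. Each sequence covers the 250 bases before the annotated start, with CTTTG, the core of sites for the TCF and LEF factors of the WNT pathway, in capitals on either strand (CAAAG where it lies on the other strand).
Phldb2 (chr16:45844379-45844628, minus strand): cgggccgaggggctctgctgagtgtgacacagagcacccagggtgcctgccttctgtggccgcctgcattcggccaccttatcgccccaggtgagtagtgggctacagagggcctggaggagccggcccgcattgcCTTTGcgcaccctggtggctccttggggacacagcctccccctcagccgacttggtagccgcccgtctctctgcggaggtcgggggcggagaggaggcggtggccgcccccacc
Chl1 (chr6:103510626-103510875, plus strand): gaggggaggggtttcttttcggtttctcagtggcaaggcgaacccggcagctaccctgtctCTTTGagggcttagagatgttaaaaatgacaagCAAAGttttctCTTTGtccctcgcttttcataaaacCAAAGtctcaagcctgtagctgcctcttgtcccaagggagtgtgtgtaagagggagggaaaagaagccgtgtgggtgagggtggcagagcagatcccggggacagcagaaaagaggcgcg
The Phldb2 window held 1 CTTTG match and the Chl1 window 4. At least 1 match was present in 48.6% of the 32851 promoter windows of this length, and at least 4 in 0.773%. The longer form CTTTGAT and the TATA sequence TATAAA had 0 matches in both windows, against 3.21% and 12.4% of all windows with a match. The GC box GGGCGG had 3 matches in the Phldb2 window and 0 in the Chl1 window, with at least 1 match in 32.7% and at least 3 in 8.47% of all windows. All motifs were searched on both strands, and CTTTGAT matches are also CTTTG matches. Such matches describe letters only. Phldb2 and Abi3bp both lie on chromosome 16, Tcim on chromosome 8 and Chl1 on chromosome 6.

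The arrays followed the sorts at the level of RNA where a probe set could show it. Krt14 signal was between 5.26 and 39.0 in papilla, 6127 and 9991 in hair germ, and 1644 and 2414 in bulge, and Cd34 was between 3098 and 3464 in bulge and at most 36.7 elsewhere. The probe set of Cdh3, which encodes P-cadherin, lay above the array median on 0 arrays, so the P-cadherin gate could not be checked. Of 8 bulge markers tested, 7 were lower in hair germ when compared with bulge, but of 5 hair germ markers tested 0 were higher and 1, Lgr5, was lower (limma, adjusted p = 0.0399), counts that were the same at an unadjusted p below 0.05. The hair germ marker sum was 992 to 1408 in papilla, 803 to 2233 in hair germ and 1413 to 1848 in bulge, so these markers did not set the hair germ apart. Median signals were between 39.9 and 56.3. The ratio of 3' to 5' GAPDH signal, a measure of RNA integrity, was 6.62, 4.13 and 3.77 in papilla on days 43, 56 and 69, 8.34, 2.97 and 7.90 in hair germ, and 4.46, 5.09 and 3.96 in bulge.

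Tcim was the gene with the highest hair germ minus bulge difference of all genes called in that comparison. Its signal was 333, 113 and 218 in papilla on days 43, 56 and 69. In hair germ it was 1854, 1100 and 1960, and in bulge 90.2, 28.8 and 69.9. On each day the papilla stood above the bulge and well below the hair germ. The lowest papilla signal, 113 on day 56, was near the highest bulge signal, 90.2 on day 43. Bulge signals were above the array median on 2 of 3 arrays. The means were 7.78 ± 0.72 log2 units in papilla, 10.65 ± 0.45 in hair germ and 6.21 ± 0.65 in bulge (SD, n = 3 each).

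Abi3bp had a wide range within the hair germ. On its brighter probe set the signal was 137, 337 and 157 in papilla on the 3 days. Hair germ gave 515, 1603 and 2592, and bulge 42.2, 47.6 and 72.5. The hair germ arrays thus covered a 4.91-fold range on the log2(signal + 16) scale, the widest of the 4 genes in any population on the probe sets used. Means were 7.72 ± 0.65 in papilla, 10.35 ± 1.18 in hair germ and 6.11 ± 0.32 in bulge, where 2 of 3 arrays were above their own median. The dimmer probe set kept the same order without overlap, at 37.4 to 84.8 in papilla, 144 to 836 in hair germ and at most 29.3 in bulge.

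Phldb2 came closest to a common level in papilla and hair germ. Papilla signals were 165, 120 and 294 on days 43, 56 and 69, hair germ signals 770, 547 and 472, and bulge signals 31.2, 19.2 and 16.5. The nearest approach was on day 69, where papilla reached 62.4% of the hair germ signal, against 21.4% on day 43 and 21.9% on day 56. Means were 7.62 ± 0.61 in papilla, 9.23 ± 0.35 in hair germ and 5.24 ± 0.28 in bulge, where no array was above its own median.

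Chl1 was detected above the array median in the 3 hair germ arrays and in 0 of the 6 others, so it passed the filter on low signals through hair germ alone. Papilla signals were 7.89, 4.02 and 11.6 on the 3 days. Hair germ signals were 575, 340 and 891, and bulge signals 34.2, 15.8 and 27.8. Papilla held between 1.18% and 1.37% of the hair germ signal. The means were 4.56 ± 0.23 in papilla, 9.17 ± 0.68 in hair germ and 5.37 ± 0.34 in bulge. Both lower levels lie among dim signals, where a difference depends strongly on the constant added before the log.

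**Figure D1:**
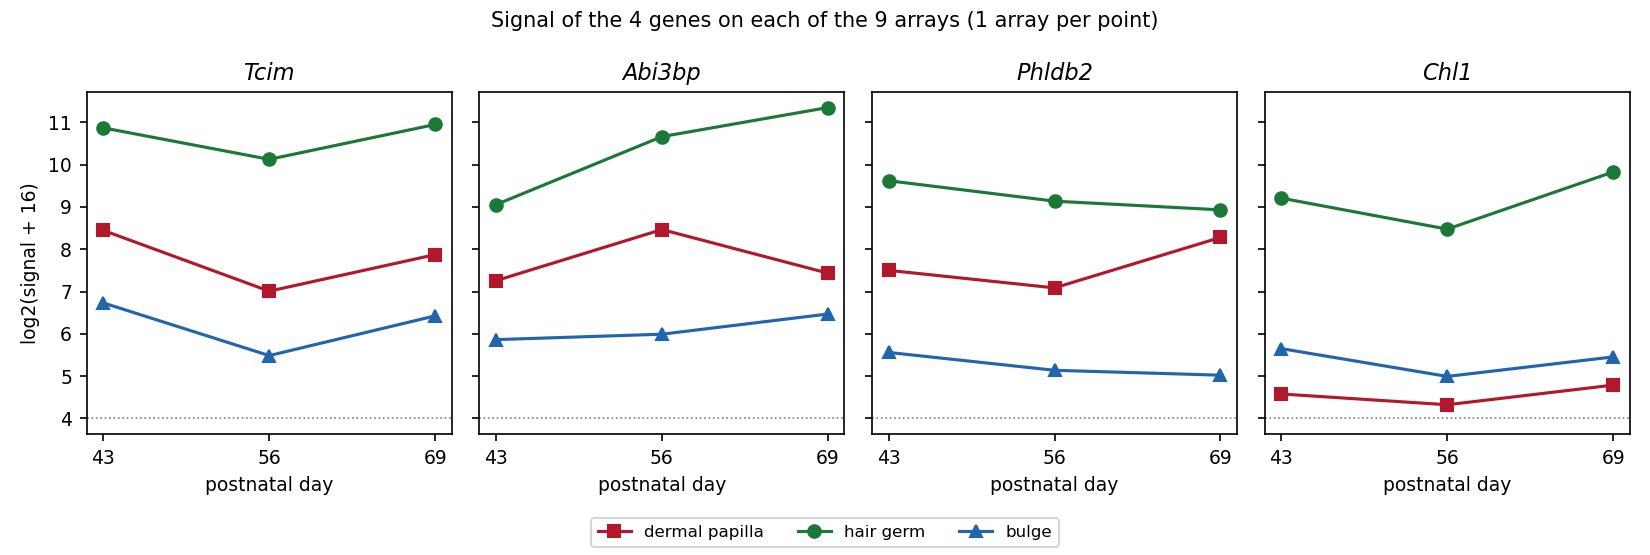
Signal of the 4 genes on each array, as log2(signal + 16), against postnatal day; each point is 1 array and lines join the arrays of a population. The dotted line at 4 marks a signal of 0. Hair germ is the top line in all 4 panels, papilla lies between hair germ and bulge for Tcim, Abi3bp and Phldb2, and papilla is the lowest line for Chl1.

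The hair germ minus bulge difference is what chose the 4 genes and is given as a description. It was 4.43 ± 0.21 (SE) log2 units for Tcim, 4.25 ± 0.39 for Abi3bp, 3.99 ± 0.31 for Phldb2 and 3.80 ± 0.27 for Chl1, or 21.6-, 19.0-, 15.9- and 14.0-fold on the log2(signal + 16) scale. Bulge signals were above the median on 0 of 3 arrays for Phldb2 and Chl1, and on 2 of 3 for Tcim and Abi3bp. The size of the difference also depends on the constant added. With 1 and with 64 in its place it was 4.78 and 3.73 for Tcim, 4.70 and 2.91 for Phldb2, and 4.44 and 2.81 for Chl1. All 4 genes had every hair germ array above every bulge array, as 23.9% of genes tested did. They held ranks 1, 5, 8 and 10 among genes higher in hair germ. The rule sets no number: Chl1, the lowest of the 4, stood at 3.80 and the next gene in rank, Serpinb2, also at 3.80. Over all genes, limma called 19.8% in this comparison (1541 of 7796, 952 higher and 589 lower). After quantile normalization 693 were higher and 794 lower, and after median centring of the arrays 613 were higher and 941 lower.

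The papilla level of each gene was then compared with its 2 epithelial levels. Against hair germ, papilla was lower by -2.87 log2 units for Tcim (95% interval -3.34 to -2.40), -2.64 for Abi3bp (-3.49 to -1.78), -1.61 for Phldb2 (-2.28 to -0.93) and -4.61 for Chl1 (-5.20 to -4.01). Each papilla array lay below each hair germ array for all 4 genes, which held for 28.1% of genes tested. Against bulge, papilla stood 1.56 higher for Tcim (1.09 to 2.03), 1.61 for Abi3bp (0.76 to 2.46) and 2.38 for Phldb2 (1.71 to 3.06). Chl1 stood at -0.80 (-1.40 to -0.21). Expressed as a share of the distance from bulge to hair germ on the log2 scale, papilla reached 35.2% for Tcim, 37.9% for Abi3bp and 59.7% for Phldb2, while Chl1 was at -21.1%, below the bulge end. These comparisons reuse the hair germ or bulge arrays on which the genes were picked, so they carry no test.

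By day, the share reached in papilla was steadiest for Tcim, at 41.4%, 32.8% and 32.0% on days 43, 56 and 69. For Abi3bp it was 43.7%, 53.0% and 19.8%, the last being the day of its highest hair germ signal. For Phldb2 it was 47.8%, 48.7% and 83.3%. Chl1 was negative throughout, at -30.2%, -19.2% and -15.2%.

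**Figure D2:**
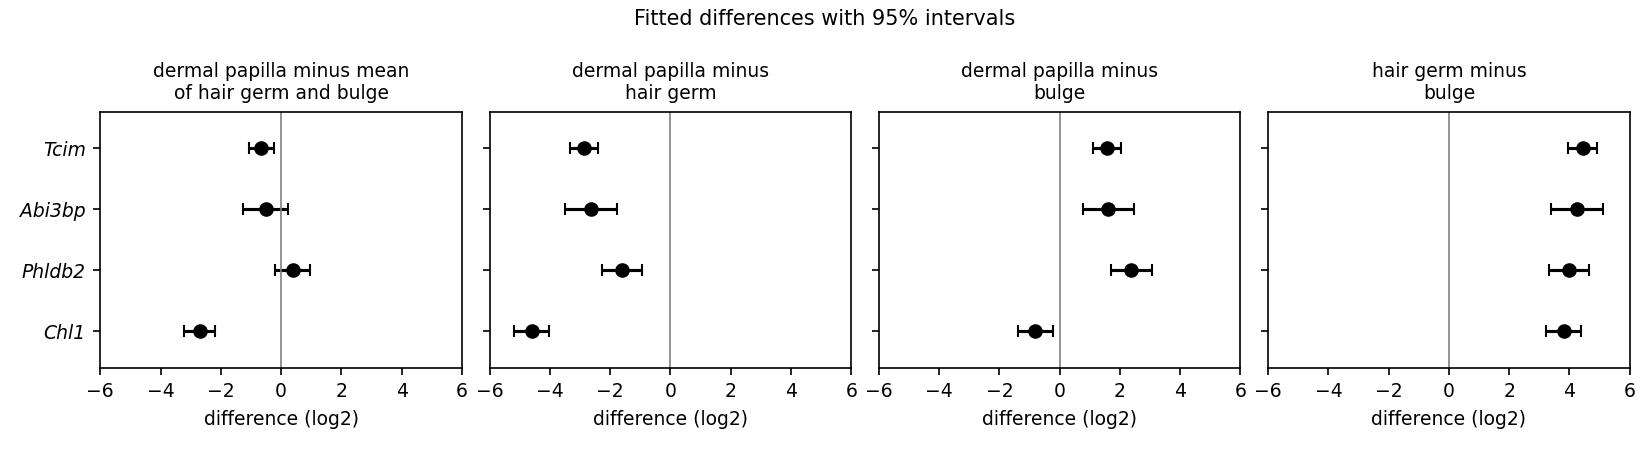
Fitted differences on the log2 scale (points) with 95% intervals (bars) for the 4 genes in 4 comparisons of populations, 9 arrays in all. Papilla minus hair germ runs between -4.61 for Chl1 and -1.61 for Phldb2, and papilla minus bulge between -0.80 for Chl1 and 2.38 for Phldb2; the bars show precision and are no test, since the genes were picked on these arrays.

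Papilla was also set against the mean of hair germ and bulge, which places it above or below the midpoint between a high and a low epithelial level. That midpoint is built from the levels on which the genes were picked, and the papilla level entered their grouping, so the differences are a description with no test. Phldb2 stood at 0.39 ± 0.26 (SE) log2 units from the midpoint, Abi3bp at -0.51 ± 0.33, Tcim at -0.66 ± 0.18 and Chl1 at -2.70 ± 0.23. For Chl1, a place below the midpoint follows from papilla signals near 0 and a hair germ level chosen to be high. It adds nothing to those levels. Tcim was below the midpoint on 3 of 3 days. Without the day 69 papilla array, Phldb2 was at -0.07 and Abi3bp at -0.032, so both values rest on that array. Over all genes, limma called 40.3% in this comparison (3145 of 7796), and nothing is read from that share for the 4 genes.

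**Figure D3:**
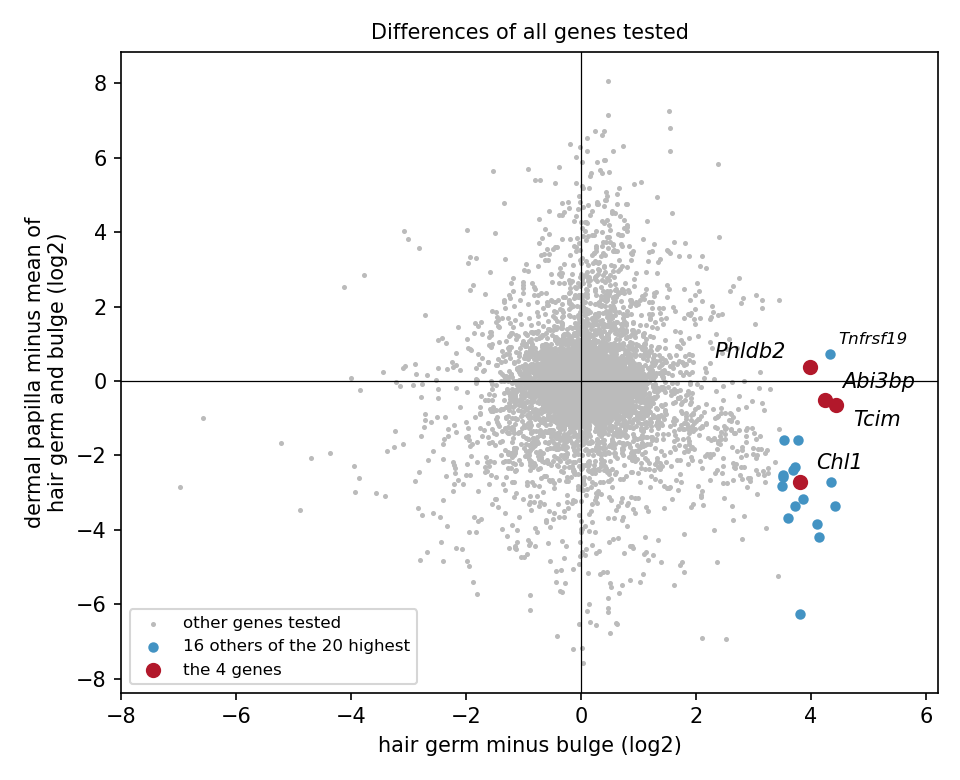
Each point is 1 of the 7796 genes tested, with the hair germ minus bulge difference on the x axis and the papilla minus epithelial mean difference on the y axis, both in log2 units. Phldb2, Abi3bp and Tcim sit between -0.66 and 0.39 on the y axis, and Chl1 lies lower, at -2.70.

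The 20 genes highest in hair germ minus bulge hold 16 besides the 4 picked ones. Papilla was above bulge without overlap in 1 of these 16, Tnfrsf19, a TNF receptor family gene and WNT target, which had the same 3-step order at 7.93 ± 0.87 in papilla, 9.37 ± 0.20 in hair germ and 5.05 ± 0.43 in bulge. The mean in papilla was below bulge in 13 of the 16, as it was for Chl1. Their median share of the bulge to hair germ distance was -24.7%. Among these were the keratin genes Krt1 (-51.4%), Krt77 (-32.3%) and Krt6b (-25.9%), the cell division genes Mki67 (-43.8%), Anln (-52.3%) and Top2a (-31.0%), and the melanin synthesis gene Dct (-12.6%). Over all 952 genes called higher in hair germ than in bulge, papilla was above bulge without overlap in 364, the 3-step order held in 70, and the median share was 17.7%. Across all genes tested, 24.3% had papilla above bulge without overlap. The difference between the 4 genes and these sets was not tested.

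**Figure D4:**
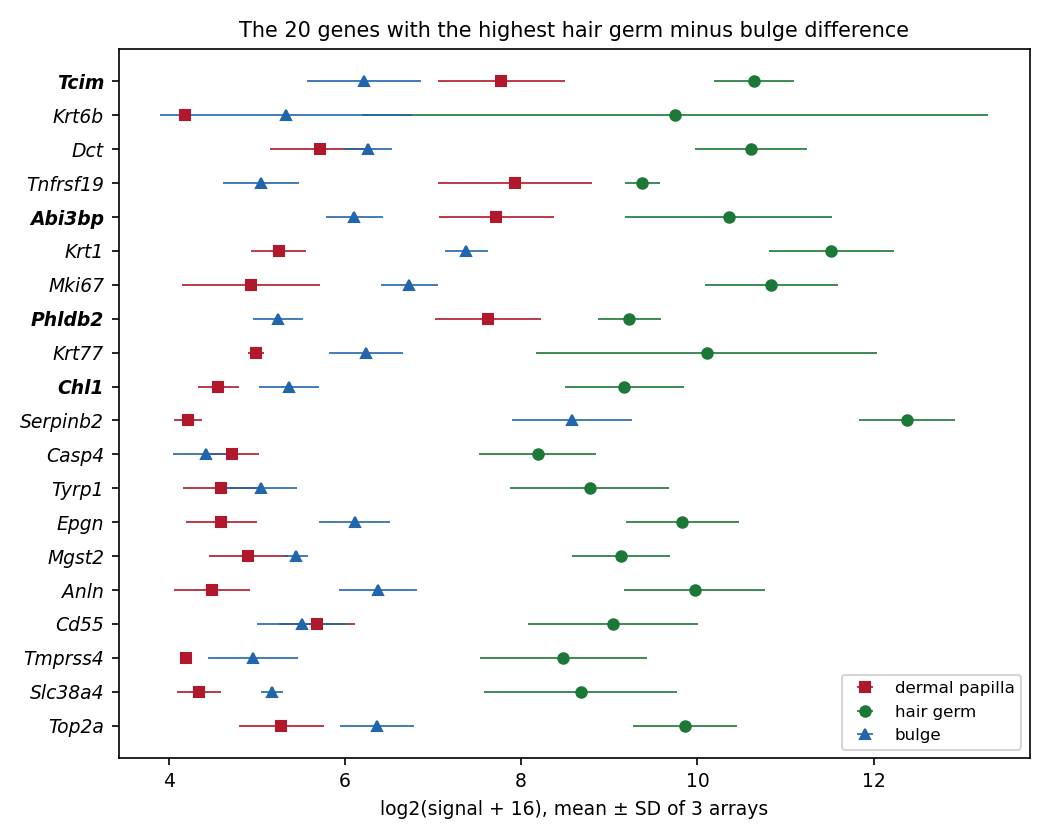
Mean ± SD (n = 3 arrays) of log2(signal + 16) in papilla, hair germ and bulge for the 20 genes with the highest hair germ minus bulge difference; the 4 genes are in bold. Papilla means lie between bulge and hair germ with clear separation for Tcim, Abi3bp, Phldb2 and Tnfrsf19, and near or below bulge for the other 16.

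Markers of the neighbouring populations were summed on each array. Of 16 papilla markers, 15 were on the array, and their summed signal was 31769 to 38823 in papilla, 506 to 1060 in hair germ and 229 to 306 in bulge. Alpl, Vcan, Corin, Prom1, Sox18, Fgf7, Fgf10 and Hhip were above the median in 0 hair germ arrays. Of the 15 markers, 3 were above it on all 3 hair germ arrays. Of 14 tested, 4 were higher in hair germ than in bulge and 0 lower, against 12.2% and 7.56% of all genes (limma). The 4 were Bmp4 (2.38), Notum (1.55), Spon1 (1.54) and Dkk2 (1.53). At an unadjusted p below 0.05 (limma), 5 of the 14 were higher and 1, Hhip (-1.34), was lower. The hair germ sum was 1.49%, 3.34% and 1.75% of the papilla sum on days 43, 56 and 69. The part of papilla cells in the hair germ signal of the 4 genes was not tested.

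Of the keratinocyte markers, 7 of 8 were on the array, with summed signals of 197 to 767 in papilla, 32443 to 52338 in hair germ and 24599 to 25962 in bulge. Krt14 and Cdh1 were above the median in 0 papilla arrays, 1 of the 7 was above it on all 3, and the rest on some. The papilla sum was 1.96%, 0.734% and 0.377% of the hair germ sum on the 3 days. On the same days the papilla signal was 17.9%, 10.2% and 11.1% of the hair germ signal for Tcim and 26.6%, 21.0% and 6.06% for Abi3bp. For Phldb2 it was 21.4%, 21.9% and 62.4%, and for Chl1 1.37%, 1.18% and 1.30%. The 8 bulge markers summed to 1205, 261 and 317 in papilla on days 43, 56 and 69, and to 17165 to 21042 in bulge. The part of keratinocytes in the papilla signal of the 4 genes was not tested.

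Melanocytes are another cell type of the follicle. With 7 of 8 melanocyte markers on the array, their sum was 421 to 745 in papilla, 2321 to 5066 in hair germ and 2298 to 2993 in bulge, and its part in the signal of the 4 genes was not tested. Day 56 had the highest melanocyte sum in hair germ, 5066, where Tcim and Chl1 had their lowest hair germ signals and Abi3bp and Phldb2 their middle ones. Of the 4 melanocyte markers tested, Dct, Tyrp1 and Pmel were higher in hair germ against bulge (4.34, 3.73 and 3.16) and Mitf was lower (-2.18; limma, adjusted p = 8.45e-05). Mitf alone made up 71.8% to 84.5% of the melanocyte sum in papilla, 13.4% to 22.5% in hair germ and 92.0% to 95.7% in bulge. Without Mitf the sum was 83.3 to 153 in papilla, 1799 to 4388 in hair germ and 128 to 183 in bulge. Leukocyte markers, 6 of 6 on the array, summed to 85.4 to 590 in papilla, 247 to 471 in hair germ and 444 to 669 in bulge. Endothelial markers, with 6 of 6 on the array, summed to 88.2 to 189 in papilla, 37.5 to 114 in hair germ and 26.3 to 39.3 in bulge. Dermal fibroblast markers summed to 15744 to 20775, 278 to 1134 and 282 to 1376 in the same order, and Schwann and nerve markers to 204 to 247, 196 to 288 and 174 to 233. Smooth muscle and dermal sheath markers summed to 288, 597 and 1353 in papilla on days 43, 56 and 69. They gave 222 to 374 in hair germ and 111 to 122 in bulge. The part of these cells in the signal of the 4 genes was not tested.

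Age was tested over the 3 populations together, which leaves population-specific courses untested. The 3 populations served as replicates of a day, and whether they share mice is not stated. A difference between ages thus cannot be told apart from one between collections. No gene was called for day 56 or day 69 against day 43 (limma, 0% of 7796, with 398 and 565 genes at an unadjusted p below 0.05). Tcim was at -1.14 ± 0.21 (SE) on day 56 (limma, unadjusted p = 0.000248, adjusted p = 0.845), lower in 3 of 3 populations, at -1.44 in papilla, -0.74 in hair germ and -1.25 in bulge. Chl1 was at -0.55 ± 0.27 on that day (limma, adjusted p = 0.845), again lower in 3 of 3. Both genes had their lowest signal on day 56 in each population, which 4.58% of genes tested showed. For Chl1, 0 papilla and 0 bulge arrays were above the array median, so its course in these populations rests on dim signals. The GAPDH ratio was lowest on day 56 in hair germ and highest on day 56 in bulge, and its part in these values was not tested.

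Abi3bp was at 0.98 ± 0.39 on day 56 and 1.03 ± 0.39 on day 69 (limma, adjusted p = 0.845 and adjusted p = 0.680). Day 69 was above day 43 in 3 of 3 populations, as for 17.5% of genes tested, by 0.18 in papilla, 2.30 in hair germ and 0.61 in bulge. Most of that course was in hair germ: without the day 43 hair germ array the day 69 value was 0.55, likewise 0.55 without the day 69 one, and 0.23 without the 3 arrays of highest GAPDH ratio. Phldb2 was at -0.44 on day 56 and -0.15 on day 69 (limma, adjusted p = 0.845 and adjusted p = 0.930). Its course differed in sign between populations, with day 69 against day 43 at 0.78 in papilla, -0.69 in hair germ and -0.54 in bulge, 1 array for each day. Chl1 on day 69 was at 0.21 (limma, adjusted p = 0.874).

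Genes whose pattern over the 9 arrays was most like each of the 4 were ranked by Pearson's r. The arrays fall into 3 populations, so r mainly reflects population means and is given as a description. Phldb2 was most like Tnfrsf19 (r = 0.982), followed by the transcription regulator gene Tsc22d1 (0.978), the centromere gene Cenpn (0.972), the splicing factor gene Tra2b (0.965) and the chromatin organiser gene Satb1 (0.957). Satb1 had means of 7.10 in papilla, 8.52 in hair germ and 5.68 in bulge. Tcim was most like Vps37b (0.971), the X inactivation RNA Xist (0.965), the mitotic kinase gene Plk1 (0.964), Uhrf1bp1l (0.960) and Tra2b (0.959).

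Abi3bp was most like the zinc transporter gene Slc30a6 (0.967), Fnbp1 (0.963), Pnpla7 (0.961), Mdfi (0.954) and Midn (0.952). Apart from Tnfrsf19, Plk1 and Satb1, the genes like these 3 differed by at most 1.73 log2 units between hair germ and bulge, so they share the order and not the size. Chl1 was most like Mgst2 (0.996), Gdpd2 (0.995), the EGF family ligand gene Hbegf (0.993), Cyp3a13 (0.993) and Bzw1 (0.992), all highest in hair germ and lowest in papilla. For Chl1, 309 genes had r above 0.9, against 61 for Phldb2, 62 for Abi3bp and 88 for Tcim. Among the 4 themselves r was highest for Tcim and Phldb2 (0.927) and lowest for Phldb2 and Chl1 (0.679).

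Partners of the 4 proteins were counted in 5 lists against the background of all genes tested, of which 16.6% were called higher and 23.7% lower in papilla than in epithelium, and 12.2% higher and 7.56% lower in hair germ than in bulge. The median over all genes was -0.10 for papilla minus epithelium and 0.10 for hair germ minus bulge, and the second moved to -0.046 after quantile normalization and to -0.11 after median centring. Leaving out the 3 arrays of highest GAPDH ratio, as done for some genes below, keeps 1 hair germ array and 1 residual degree of freedom. A call that ended in that setting thus cannot be told apart from a general loss of precision. Of 25 genes around LL5-beta, 13 were tested. In papilla 4 were higher and 6 lower, with a median of -0.48, and in hair germ against bulge 1 was higher and 3 lower, with a median of 0.12; without the 3 arrays of highest GAPDH ratio the 10 and 4 calls became 6 and 2. Phldb1, the paralogue of Phldb2, was at 8.91 ± 0.34 in papilla, 7.77 ± 0.32 in hair germ and 6.39 ± 0.14 in bulge. It was higher in papilla by 1.83 ± 0.20 (SE; limma, adjusted p = 2.81e-05) and in hair germ against bulge by 1.38 ± 0.23 (limma, adjusted p = 0.00227), and the second call ended without the 3 arrays of highest GAPDH ratio (0.90, adjusted p = 0.164). Kank2, which links talin to the cortical platform, was higher in papilla by 2.22. It was lower in hair germ when set against bulge (-1.25), a call that ended in 1 of the 9 fits that left out 1 array. The kinesin gene Kif21a (-2.49) and the cytoskeletal linker gene Macf1 (-1.40) were lower in papilla, and Macf1 was also lower in hair germ when set against bulge (-1.26).

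Of 22 L1 family genes and partners, 13 were tested, 2 higher and 6 lower in papilla (median -0.34), and 4 higher and 2 lower in hair germ against bulge (median 0.33). The 6 hair germ calls became 3, 2 and 2 without the bulge arrays of days 43, 56 and 69, and 2 without the day 56 hair germ array. L1cam itself was at 6.32 ± 0.24 in papilla, 8.53 ± 0.36 in hair germ and 9.19 ± 0.07 in bulge, lower in papilla by -2.54. In hair germ against bulge L1cam was at -0.65 (limma, adjusted p = 0.0863), and it passed without the day 69 hair germ array (adjusted p = 0.0429) and with median centring (adjusted p = 0.0265). Adam8, a protease known to shed CHL1, exceeded its bulge level in hair germ by 3.00 ± 0.31 (SE; limma, adjusted p = 0.000117), at 5.23 ± 0.10 in papilla, 8.13 ± 0.75 in hair germ and 5.13 ± 0.71 in bulge. It was lower in papilla than in epithelium by -1.41, a call that ended without the arrays of highest GAPDH ratio (adjusted p = 0.0661). The semaphorin receptor gene Nrp2 was higher in papilla by 2.28 and the membrane linker gene Ezr lower by -2.31.

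Of 13 beta-catenin complex genes and targets, 10 were tested, 3 higher and 3 lower in papilla (median 0.17). In hair germ against bulge 2 were higher and 2 lower (median 0.0012). The 2 higher were Axin2 (1.46) and Ccnd1 (1.07), and the 2 lower were Tcf7l1 and Mmp14 (-1.03). The 4 hair germ calls became 2 without the day 43 bulge, day 56 bulge or day 56 hair germ array, and 1 without the arrays of highest GAPDH ratio. Lef1, which also drives the red reporter of the sort, was higher in papilla by 2.64. The repressor gene Tcf7l1 was called at -1.55 in hair germ against bulge, and it was higher in papilla by 0.99. That hair germ call ended without the arrays of highest GAPDH ratio (-0.95, adjusted p = 0.118). Myc (-2.48) and Cd44 (-1.49) were lower in papilla.

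Of 12 matrix proteins with fibronectin type III repeats, 7 were tested, 1 higher and 3 lower in papilla (median -0.72), and 2 higher and 0 lower in hair germ against bulge (limma; 3 and 0 at an unadjusted p below 0.05; median 0.52). The 2 calls became 1 without the day 43 or day 56 bulge array. Tnxb, which encodes tenascin X, exceeded its bulge level in hair germ by 3.04 ± 0.27 (SE; limma, adjusted p = 5.63e-05), at 5.15 ± 0.39 in papilla, 8.74 ± 0.10 in hair germ and 5.70 ± 0.27 in bulge. Like Chl1, its mean was highest in hair germ and lowest in papilla. Col7a1, the anchoring fibril collagen gene, exceeded its bulge level in hair germ by 1.50, a call that ended without the day 43 bulge array (adjusted p = 0.0626), without the day 56 one (adjusted p = 0.0613) and without the arrays of highest GAPDH ratio (adjusted p = 0.118). Col6a3 was higher in papilla by 6.71 and Fn1 lower by -2.71. Of 11 ABI and WAVE complex genes, 5 were tested, 1 higher (Wasf1, 2.17) and 2 lower in papilla (median -0.21), with 0 called in hair germ against bulge (limma; also 0 at an unadjusted p below 0.05; median 0.12). The calls of the 2 lower genes, Abi1 (-0.56) and Nckap1 (-0.72), ended in 5 and 4 of the 9 fits that left out 1 array, and 1 of the 3 calls was left without the day 69 bulge, day 56 papilla or day 69 papilla array.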

How the data were processed

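RNA of 9 sorted samples was measured on 1 oligonucleotide array each. The authors deposited MAS5 signals, linear intensity values made with GCOS, per the submitters' processing notes; versions, scaling target and genome build are not given in the sources used here. The 4 genes and the lists were chosen with earlier results of these data known.

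Of 22690 probe sets, 64 were controls and left out; the rest were put on the log2(signal + 16) scale without rescaling the arrays. Probe sets above their array's median on at least 3 arrays were kept. The platform annotation, which can be old, gave 1 gene for 20380 probe sets, several for 691 and none for 1555; 20351 symbols were matched to the RefSeq gene table (GRCm38.p6). The probe set with the highest mean log2 value stood for its gene.

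The main test used the 9 arrays in 1 limma fit, with terms for population and for day, run with limma 3.58.1 in R 4.3.3 (eBayes with trend), two-sided, Benjamini-Hochberg adjusted over 7796 genes, called below 0.05. The 3 ages are the replicates of a population, so p-values measure the spread left between these arrays after the day terms; separate animals are not stated. Same-day deviations from population means correlated between -0.097 and 0.184 across genes, against -0.261 to 0.243 for different days, which does not settle whether days pair the arrays. Population differences of the 4 genes carry no p: a test of papilla against the epithelial mean was planned for them and is not reported, because their choice bears on it. The steps were tested on simulated data. Named genes were all 4 picked genes, the 5 genes most like each by r, up to 10 of the 20 genes highest in hair germ minus bulge, and up to 4 called members per partner list. For the beta-catenin list, all genes called in hair germ minus bulge were named as well. Signals give no count depth: the number of arrays limits precision. Alternatives were the pseudocount, scaling, filter, probe set rule, age term, trend and leaving out each array, and, chosen after seeing the data, leaving out the 3 arrays with a GAPDH ratio above 6.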

Additional observations from a re-analysis of the deposited data

How the results depend on the processing

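The number of genes called in hair germ minus bulge was 1541, and it fell to 543 without the 3 arrays with a GAPDH ratio above 6 (373 higher and 170 lower, 487 of them shared with the 1541), a setting chosen after seeing the data that keeps 1 hair germ array and 1 residual degree of freedom. Leaving out 1 array at a time gave 783 to 1609, the lowest counts being 783, 973 and 863 without the bulge arrays of days 43, 56 and 69. For papilla minus epithelium the same step gave 2456 to 3205. The Tcim difference there was -0.66 also when the day term, which serves as the replicate block, was dropped, and ran over -0.81 to -0.58 with 1 array left out; it is a description, so no call is given. Papilla minus bulge for Tcim was 1.81 with a pseudocount of 1 and 1.12 with 64, and 1.41 to 1.64 with 1 array left out; for Phldb2 it was 1.52 with 64. For Chl1, papilla minus bulge was -1.64 with a pseudocount of 1 and -0.32 with 64, and papilla minus hair germ was -6.08 and -3.13 with those constants and -4.15 without the 3 arrays. Ezr in hair germ minus bulge turned from 1.34 to -0.028 when its probe sets were averaged; the cause was not tested. Signals below the array median, such as Chl1 outside hair germ, limit what papilla minus bulge can show.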
